A study of Homo sapiens with 4 samples.

Results

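Proteasome subunits and ubiquitin-conjugating enzymes are described here across 4 populations of H1299 cells, the latter by the genes named UBE2. Members were all array probes whose gene symbol begins with PSMA to PSMG and a number, or with UBE2. These were 75 of 30968 probes, or 62 of the 15240 genes named in the platform annotation. The proteasome family had 48 probes of 39 genes and the UBE2 family had 26 probes of 22 genes. The remaining match, PSMC3IP, shares the letters but encodes a recombination factor and no subunit, and its probe was not above background on any array (intensities of 7, 0, 5 and 0), so it was left out of the counts.

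H1299 cells come from a non-small cell lung cancer of human origin. They were stably transfected with GFP under the Oct4 promoter or under the Nestin promoter, selected with neomycin and sorted by flow cytometry for high GFP or for no GFP. Total RNA of each population, from cultures of 24 h, was hybridized to 1 Cy3 array. The sample labels call the GFP (−) cells negative for the reporter vectors, and leave it undecided whether these had lost GFP expression or never carried the vector. The paper describes its GFP (−) cells as sorted from GFP (+) cultures after some cells lost GFP. Its array methods name only the GFP (+) cells. With 1 array per population no difference has a replicate check, a p-value or an error, and a fold describes those 2 arrays. Where 4 values stand together, they are first the Oct4/GFP (+) and Nestin/GFP (+) arrays and then the Oct4/GFP (−) and Nestin/GFP (−) arrays. Between the lines, higher and lower always refer to the Oct4 cells, and within a line to the GFP (+) cells.

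The proteasome degrades proteins that carry ubiquitin chains. Its core particle is a barrel of alpha subunits (PSMA genes) and beta subunits (PSMB genes), and the beta subunits PSMB5, PSMB6 and PSMB7 cut the peptide bonds. A regulatory particle caps the barrel, with ATPases (PSMC genes) that unfold the substrate and non-ATPase subunits (PSMD genes) that bind and remove ubiquitin. UBE2 enzymes receive activated ubiquitin, or a related modifier, and pass it on to substrates together with a ligase. Cells can raise many proteasome genes together through NFE2L1 and NFE2L2, transcription factors that bind an antioxidant response element.

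Intensities as deposited had medians of 7, 7, 4 and 9 over all probes. A probe was taken as above background on an array where its intensity exceeded 3 times that array's noise SD, which gave limits of 15.3, 22.7, 13.9 and 20.3. The Oct4/GFP (−) array was the dimmest, with 19.5% of its probes above background against 26.3% to 29.1% on the other arrays. Levels were then quantile normalized and differences are log2 of normalized intensity unless deposited intensities are named. Of the cell identity markers, vimentin (VIM) was above background on all 4 arrays, while the epithelial markers CDH1 and KRT19 were on none. Of the lung lineage markers, NKX2-1, SFTPC and SCGB1A1 were on none and both probes of SFTPB were on all 4. Of 12 markers of other cell types, 8 had a probe, all of leukocytes, endothelium or fibroblasts. Probes of 4 of these passed the limit on some array, no intensity exceeded 26, and the summed intensity, with values below 0 set to 0, was 41, 97, 63 and 70. NES was not above background on any array, and POU5F1 has no probe named here.

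Promoters are shown for 4 proteasome genes whose probes were low on at least 1 Oct4/GFP array, PSMC4, PSMA2, PSMB5 and PSMD14. Each runs from 250 bases before to 50 after the start of the gene, from RefSeq on GRCh38.p14. Capitals mark matches, on either strand, to the element core TGACNNNGC, to CCAAT or to the ETS-type motif CCGGAAG.
PSMC4 (chr19:39970915-39971214, plus strand): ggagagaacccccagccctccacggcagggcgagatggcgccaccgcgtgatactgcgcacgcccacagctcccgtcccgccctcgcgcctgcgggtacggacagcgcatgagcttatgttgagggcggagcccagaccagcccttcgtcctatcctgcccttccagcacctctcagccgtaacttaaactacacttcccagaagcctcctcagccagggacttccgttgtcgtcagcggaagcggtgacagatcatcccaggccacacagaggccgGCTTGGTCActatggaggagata
PSMA2 (chr7:42932125-42932424, minus strand): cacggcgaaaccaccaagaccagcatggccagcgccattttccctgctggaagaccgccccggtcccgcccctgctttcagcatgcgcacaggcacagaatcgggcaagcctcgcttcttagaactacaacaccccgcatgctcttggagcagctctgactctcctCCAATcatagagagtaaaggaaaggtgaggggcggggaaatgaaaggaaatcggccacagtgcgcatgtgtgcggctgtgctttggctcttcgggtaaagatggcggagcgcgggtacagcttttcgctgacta
PSMB5 (chr14:23035171-23035470, minus strand): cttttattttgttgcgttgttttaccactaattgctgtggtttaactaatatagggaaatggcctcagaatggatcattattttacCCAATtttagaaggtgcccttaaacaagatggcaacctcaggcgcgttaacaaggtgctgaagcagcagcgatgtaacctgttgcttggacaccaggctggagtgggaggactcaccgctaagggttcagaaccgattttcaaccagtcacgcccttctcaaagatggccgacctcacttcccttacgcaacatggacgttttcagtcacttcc
PSMD14 (chr2:161308175-161308474, plus strand): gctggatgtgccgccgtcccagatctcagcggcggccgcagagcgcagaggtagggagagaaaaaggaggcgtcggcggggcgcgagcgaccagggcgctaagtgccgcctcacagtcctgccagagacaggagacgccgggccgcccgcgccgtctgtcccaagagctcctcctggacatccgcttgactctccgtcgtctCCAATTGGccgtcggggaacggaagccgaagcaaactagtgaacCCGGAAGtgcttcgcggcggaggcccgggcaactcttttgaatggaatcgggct
PSMC4 held 1 match to TGACNNNGC, PSMA2 and PSMB5 held 1 match each to CCAAT, and PSMD14 held 1 match to CCGGAAG and 2 to CCAAT, which overlap on opposite strands. Of 33 proteasome genes with a promoter entry, 10 (30.3%) held TGACNNNGC, against 13.3% of all 35116 promoters. CCAAT was in 15 of the 33 (45.5%) against 34.6%, and CCGGAAG in 11 (33.3%) against 10.3%. Among 17 UBE2 promoters the counts were 2, 4 and 4 (11.8%, 23.5% and 23.5%). A match describes these letters only. UBE2Q1 is not among the promoters used here.

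Most proteasome subunits were well detected. Of 48 probes, 27 were above background on all 4 arrays (56.3%, against 12.9% of all probes), 11 on 1 to 3 arrays and 10 on none. At least 1 probe was above background somewhere for 31 of 39 genes. Those with no such probe were PSMA4, the testis-type alpha subunit PSMA8, the immunoproteasome subunit PSMB10, the ubiquitin receptor PSMD4, PSMD12 and the activator subunits PSME2, PSME3 and PSME4. No probe is named here for PSMA3, PSMA6, PSMB8, PSMB9, PSMB11, PSMC6, PSMG1, PSMG2 or PSMG4. Among the core subunits, the beta subunit PSMB4 had deposited intensities of 2551, 5994, 1104 and 3431, and the catalytic subunit PSMB6 had 2139, 3923, 646 and 3256 on one of its probes. Both were highest on Nestin/GFP (+) and lowest on Oct4/GFP (−). Before normalization 26 of the 27 probes detected on all arrays were brightest on Nestin/GFP (+), as were 66.5% of all probes so detected. On Oct4/GFP (−) 24 of the 27 were dimmest, as were 88.2% of all probes so detected.

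After normalization the Nestin/GFP (+) array still held the highest level for 13 of these 27 proteasome probes (48.1%), against 20.6% of the 3980 probes detected on all arrays. The lowest level lay on the Oct4/GFP (−) array for 10, on Oct4/GFP (+) for 9, on Nestin/GFP (−) for 7 and on Nestin/GFP (+) for 1. The shares of all probes lowest on these arrays were 24.3%, 22.7%, 24.6% and 28.3%. Of the 8 UBE2 probes detected on all arrays, 1 was highest and 4 were lowest on Nestin/GFP (+).

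**Figure D1:**
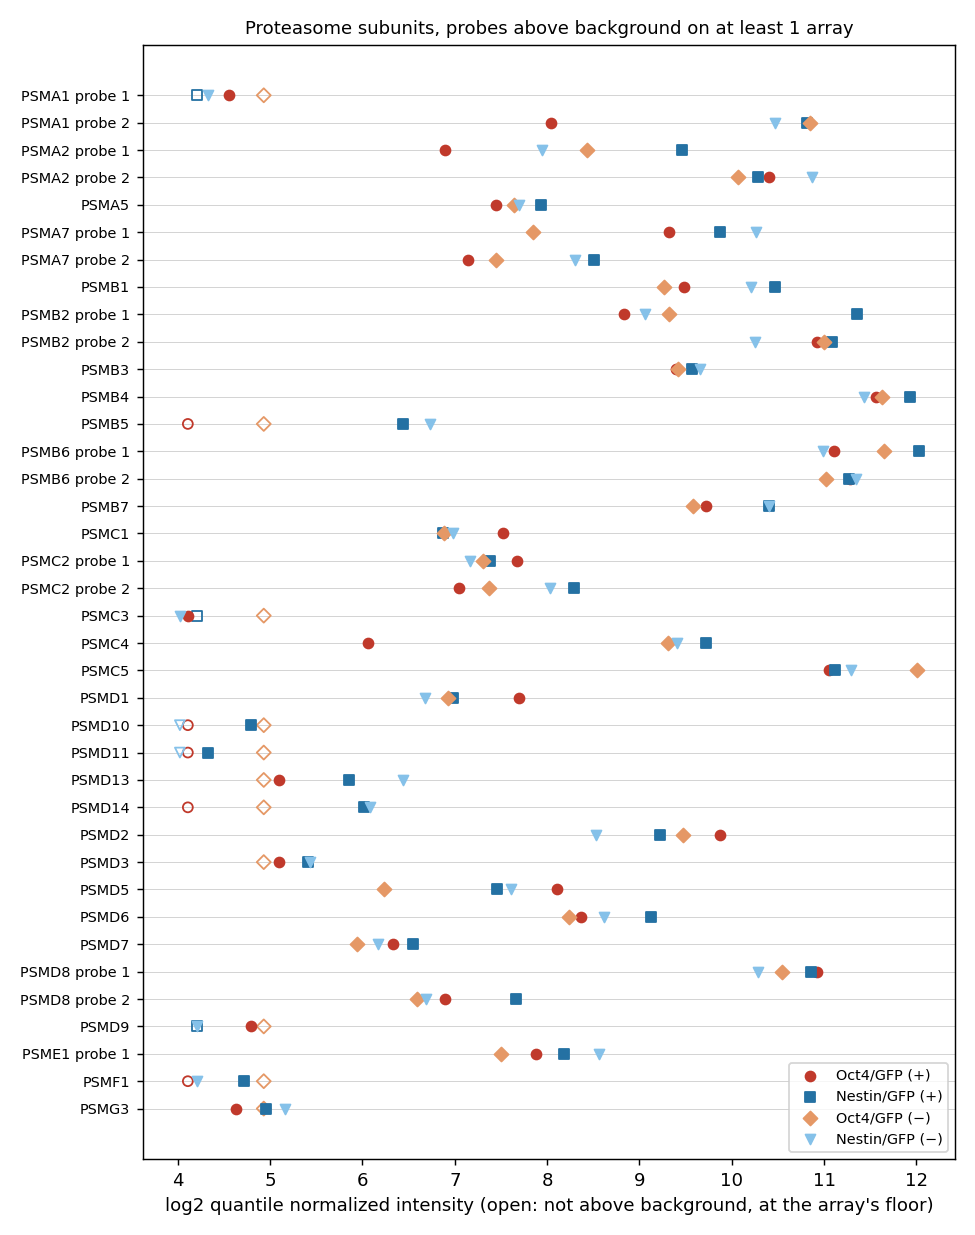
Log2 quantile normalized intensity (x axis) of each proteasome probe above background on at least 1 array (rows), with 1 marker per array and open markers where the probe was not above background and stands at that array's floor. PSMC4 and PSMA1 probe 2 stand far to the left on Oct4/GFP (+) only, and PSMB5 and PSMD14 are filled on the Nestin/GFP arrays only.

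The arrays were made to ask how cells that use the Oct4 promoter differ from those that use the Nestin promoter. Between the GFP (+) arrays, proteasome probes lay lower in the Oct4 cells. In bulk RNA, fewer cells of a kind and less RNA per cell cannot be told apart. Of 30 probes above background on both arrays, 6 were more than 2-fold lower and 0 were more than 2-fold higher. Over all 5962 probes measured on both arrays, 11.9% were more than 2-fold lower and 14.9% higher, so the share of lower proteasome probes (20.0%) was above and the share of higher ones below the background. The median log2 difference was -0.35, with quartiles of -0.88 and 0.00, against 0.09 for all probes, and 22 of the 30 differences were below 0. The distance of the family median from the all-probe median was -0.44, and ran from -0.59 to -0.17 over the other settings. With the probes of each gene averaged, 4 of 24 genes were more than 2-fold lower and 0 higher, against 11.5% and 12.3% of all genes. With 1 array a group these counts describe the arrays. The number of probes past 2-fold depends on scaling, and was 22, all lower, without normalization or with each array centred on its median, where the median of all probes itself was -0.93.

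PSMC4, an ATPase of the regulatory particle, had the largest proteasome difference. Its intensities were 51, 1413, 197 and 842, and it was 12.7-fold lower between the GFP (+) arrays. The Oct4/GFP (+) array stood apart, as PSMC4 was also 9.53-fold lower there than on Oct4/GFP (−), while the other 3 arrays lay within 2-fold of each other after normalization. The second probe of the alpha subunit PSMA1 gave 179, 3057, 559 and 1735 and was 6.82-fold lower. It too was low on the Oct4/GFP (+) array alone, 6.98-fold below Oct4/GFP (−). Its other probe, with 21, 5, 6 and 26, was above background on Oct4/GFP (+) and Nestin/GFP (−) only, and ran the other way, at least 1.27-fold higher between the GFP (+) arrays. Among all 3980 probes detected on every array, 104 (2.61%) were over 4-fold lower on Oct4/GFP (+) than the mean of the other 3, against 13, 12 and 4 on the other arrays, so single low probes were most frequent on this array. CD44, a surface marker of mesenchymal-type cells, was low there too (21, 682, 83 and 352). By flow cytometry the paper found CD44 on nearly all H1299 cells. VIM gave 267, 1518, 140 and 772. On Oct4/GFP (+) its log2 difference was -1.21 from Nestin/GFP (+) but -0.20 from Oct4/GFP (−). The part of the array, or of a shift in mesenchymal-type cells, in the PSMC4 and PSMA1 results was not tested.

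The other 4 lower probes belong to genes with a second probe, which in each case did not pass 2-fold. For the alpha subunit PSMA2, the first probe gave 82, 1212, 109 and 315, a 5.97-fold lower level. The second probe had 1019, 2125, 337 and 2318, a log2 difference of 0.11. The beta subunit PSMB2 behaved alike, with 318, 4104, 199 and 667 on the first probe. That is 5.77-fold lower, against a log2 difference of -0.16 on the second probe, with 1598, 3404, 637 and 1503. For PSMB2 the array that stood apart was Nestin/GFP (+), where the first probe was over 4-fold above the mean of the other 3 arrays. The second probe of PSMA7 (94, 634, 58 and 395) was 2.59-fold lower and its first probe (454, 1572, 74 and 1517) had a log2 difference of -0.55. The ATPase PSMC2 had 89, 547, 56 and 331 on its second probe, 2.37-fold lower, and 138, 285, 54 and 184 on its first, a log2 difference of 0.30. The non-ATPase subunit PSMD8 stayed within 2-fold on both probes, at 0.06 (1590, 3088, 474 and 1552) and -0.78 (82, 352, 35 and 131). In all, 7 genes of both families had 2 probes measured on both GFP (+) arrays. In 4 of them 1 probe passed 2-fold, in 0 did both, and in 2 the signs were the same. The gap between the probes of a gene had a median of 0.93 on the log2 scale and reached 2.69, which is larger than the family's shift.

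**Figure D2:**
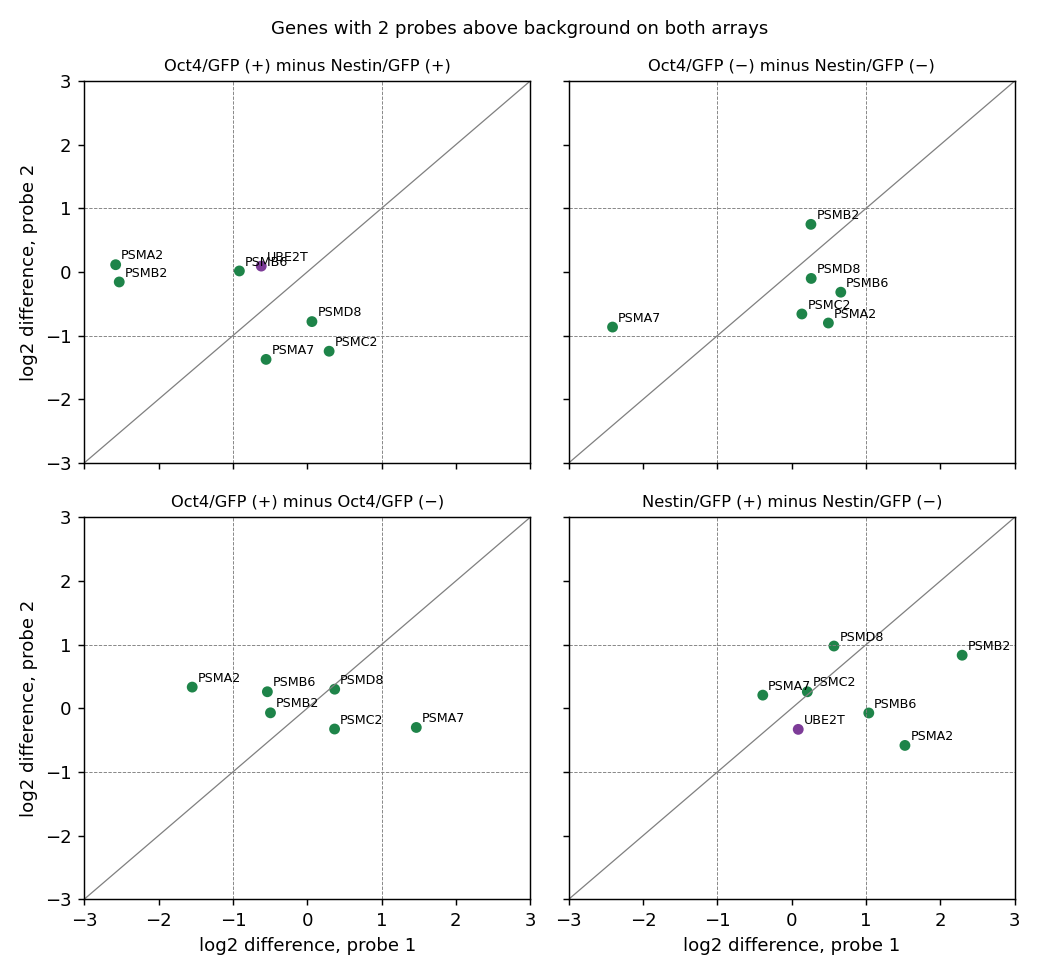
Log2 difference of the first probe (x axis) against the second probe (y axis) of each gene with 2 probes above background on both arrays, in the 4 comparisons. The solid line marks equal differences and the dashed lines a 2-fold difference, and no gene passes 2-fold in the same direction on both of its probes.

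A further 2 proteasome genes were lower by a bound, since their probes were not above background on the Oct4/GFP (+) array. PSMB5, the catalytic subunit with chymotrypsin-like activity and the main target of bortezomib, had intensities of 13, 139, 5 and 134. It was at least 5.01-fold lower between the GFP (+) arrays and at least 3.48-fold lower between the GFP (−) arrays. PSMD14, the deubiquitinase of the regulatory particle, had 5, 100, 6 and 89, and was at least 3.74-fold lower between the GFP (+) arrays and at least 2.22-fold lower between the GFP (−) arrays. Both genes were above background on each Nestin/GFP array and on neither Oct4/GFP array, and within the Nestin line they differed by -0.29 and -0.07. Between the GFP (−) arrays, where the Oct4 array was the dimmest, the bound fell under 2-fold in 1 of 6 other settings for PSMB5 and in 3 of 6 for PSMD14, to -0.72 and -0.08. PSMB5 and PSMD14 have 1 probe each. Over all probes, with bounds included, 15.3% were more than 2-fold lower between the GFP (+) arrays and 15.7% higher, against 8 and 0 of 37 proteasome probes. Between the GFP (−) arrays 12.1% were lower and 24.0% higher, against 6 and 0 of 32.

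The other catalytic subunits differed less. PSMB7, with trypsin-like activity, had intensities of 635, 2285, 244 and 1677 and a log2 difference of -0.68 between the GFP (+) arrays. PSMB6, with caspase-like activity, differed by -0.91 and 0.02 on its 2 probes, the first with 1934, 6360, 1114 and 2486. By role, the median log2 difference was -0.96 over 6 alpha probes and -0.52 over 8 beta probes of the core. It was -0.07 over 5 ATPase probes and -0.26 over 8 non-ATPase probes of the regulatory particle. The highest members were 3 subunits and 1 assembly chaperone of the regulatory particle. The scaffold subunits PSMD1 (141, 215, 43 and 130) and PSMD2 (704, 1045, 222 and 472) differed by 0.72 and 0.66, the ATPase PSMC1 (125, 198, 42 and 159) by 0.65 and the chaperone PSMD5 (189, 302, 28 and 245) by 0.64. None reached 2-fold.

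Regulators outside the core and the cap were mostly dim. The activator subunit PSME1 had 159, 501, 60 and 482 on its first probe, a log2 difference of -0.30 between the GFP (+) arrays, and was not above background on its second. The proteasome inhibitor PSMF1 had 4, 35, 0 and 24 and the assembly chaperone PSMG3 had 22, 43, 12 and 47. PSMF1 was above background on the Nestin/GFP arrays only, with a bound under 2-fold, and PSMG3 differed by -0.32.

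UBE2 probes passed the background limit less often than proteasome probes, and did not lean to a side between the GFP (+) arrays. Of 26 probes, 8 were above background on all 4 arrays (30.8%, against 12.9% of all probes) and 9 on 1 to 3. On none were 9 (34.6%, against 58.8% of all probes), so UBE2 probes were still detected more often than probes at large. At least 1 probe was above background for 15 of 22 genes. Of 13 probes measured on both GFP (+) arrays, 3 were more than 2-fold higher and 1 was lower in Oct4/GFP (+) cells, against 14.9% and 11.9% of all probes. The median log2 difference was 0.09, equal at this rounding to the 0.09 of all probes. With each array centred on its median, or without normalization, the split was 2 higher and 7 lower. With the limit at 5 noise SD the count was 1, UBE2C. UBE2Q1 was then not above background on the Nestin/GFP (+) array and kept a bound of 6.95 on the log2 scale.

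UBE2Q1, a ubiquitin-conjugating enzyme that the study picked out, had the largest difference of either family. The study took its PCR genes from those past a fold threshold between the GFP (+) cells, so a large difference was part of the choice. The 1 UBE2Q1 probe had intensities of 2918, 28, 16 and 61. It was high on the Oct4/GFP (+) array, near the limit on Nestin/GFP (+) and Oct4/GFP (−), and above its limit of 20.3 on Nestin/GFP (−). Its level on Oct4/GFP (+) was 158 times that on Nestin/GFP (+), or 7.30 on the log2 scale, and 88.6 times that on Oct4/GFP (−), or 6.47. Both folds rest on dim values near the limits of 22.7 and 13.9. For UBE2Q1 the paper also used quantitative PCR on sorted GFP (+) cells, and found the same direction between the lines. Its text puts that PCR difference only at more than 3-fold, so the size of 158 on the arrays has no matching value there. Of the 3980 probes detected on all arrays, 0 had a larger range over the 4 arrays than UBE2Q1, with 7.30 on the log2 scale. Among the 5962 probes measured on both GFP (+) arrays, the largest log2 difference was 8.75. Among the 3980, UBE2Q1 was the only probe over 8-fold above the mean of the other 3 on Oct4/GFP (+), where 40 probes were over 8-fold below. The 3980 leave out any probe not above background on all 4 arrays, so a probe bright on Oct4/GFP (+) alone was not ranked. These rankings therefore do not show that the UBE2Q1 pattern is unique. Within the Nestin line UBE2Q1 was 2.11-fold lower, at intensities of 28 and 61, and under 2-fold in 3 of 6 other settings. The related enzyme UBE2Q2 had 43, 80, 34 and 71, a log2 difference of 0.11 between the GFP (+) arrays, and so did not share the UBE2Q1 pattern. Nearest patterns over the 4 arrays were sought by Euclidean distance of centred log2 levels, among 2978 other probes of named genes detected on all arrays. The nearest were those of RPUSD4 at 3.86, GSN at 4.05 and HNRPUL1 at 4.08. RPUSD4 gave 89, 29, 14 and 43 and GSN, an actin-severing protein, 200, 90, 24 and 125, so both were highest on Oct4/GFP (+) by far less than UBE2Q1.

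**Figure D3:**
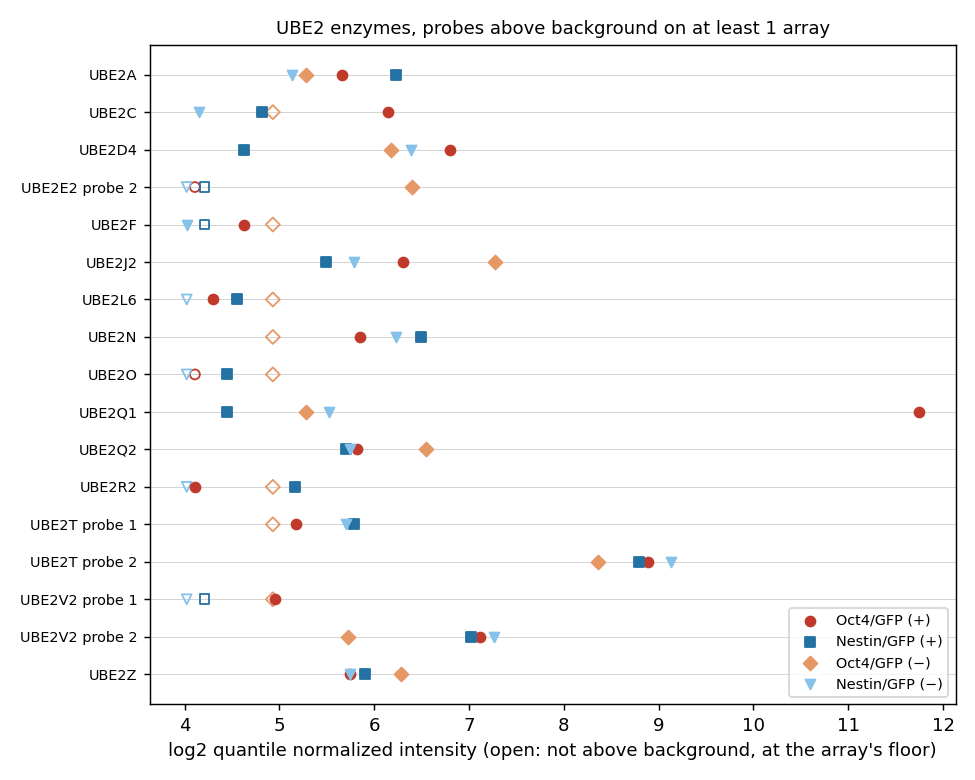
Log2 quantile normalized intensity (x axis) of each UBE2 probe above background on at least 1 array (rows), with 1 marker per array and open markers where the probe was not above background and stands at that array's floor. UBE2Q1 on Oct4/GFP (+) lies far to the right of every other marker in its row, and UBE2C and UBE2R2 are filled on only some arrays.

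UBE2D4, of the UBE2D group that serves many ligases, gave 78, 33, 27 and 107, a 4.49-fold higher level between the GFP (+) arrays. It was the Nestin/GFP (+) array that was low, since UBE2D4 was also 3.38-fold lower there than on Nestin/GFP (−). UBE2C, which works with the anaphase-promoting complex in mitosis, gave 54, 39, 4 and 23, a 2.51-fold higher level. Its deposited intensities differed by 1.38-fold, and in 3 of 6 other settings the difference was under 2-fold. UBE2R2, of the CDC34 group, had 16, 52, 10 and 1 and was 2.07-fold lower. In 4 of 6 other settings it was under 2-fold, and its 16 lies just above the limit of 15.3.

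The remaining UBE2 members measured on both GFP (+) arrays stayed within 2-fold. UBE2T, of the Fanconi anemia repair pathway, had 332, 778, 103 and 695 on its second probe, a log2 difference of 0.09, and 29, 85, -2 and 69 on its first, a difference of -0.62. UBE2N, which builds K63-linked chains, had 44, 146, 6 and 98 and differed by -0.64, and its partner UBE2V2, which lacks the catalytic cysteine, had 93, 221, 20 and 198 on its second probe and differed by 0.10. UBE2A, of the RAD6 group, differed by -0.57, UBE2Z, which conjugates FAT10, by -0.16 and UBE2L6, which conjugates ISG15, by -0.25. The membrane-bound UBE2J2 of ER-associated degradation had 60, 68, 53 and 73 and differed by 0.81. Its partners in that pathway, UBE2J1 and UBE2G2, were not above background on any array, and no probe of UBE2G1 was either. UBE2F, a NEDD8 enzyme, was above background on Oct4/GFP (+) and Nestin/GFP (−) only, at 22 and 21. No probe is named here for UBE2M, UBE2S or UBE2V1.

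Between the GFP (−) arrays, of 27 measured proteasome probes, 3 (11.1%) were more than 2-fold lower and 0 higher, against 9.63% lower and 18.3% higher over all probes, so the lower share was near the background. The median was -0.10 against 0.18 for all probes, a distance of -0.28 that ran from -0.35 to -0.07 over the other settings. The lower probes were the first of PSMA7 at 5.32-fold, PSMD5 at 2.60-fold and the first of PSME1 at 2.08-fold. PSMA7 was low on Oct4/GFP (−) alone (a normalized 231, against 638 or more elsewhere), and its second probe differed by -0.87. PSMD5 was likewise low on Oct4/GFP (−), with a normalized 75 against 176 or more. PSMD13, a non-ATPase subunit with intensities of 28, 89, 11 and 111, was lower by a bound of at least 2.85-fold. At the upper end PSMD2 differed by 0.94, the second probe of PSMB2 by 0.75 and the ATPase PSMC5 by 0.71. Of 8 UBE2 probes measured, UBE2J2 was 2.79-fold higher and the second probe of UBE2V2 2.91-fold lower, followed by UBE2Q2 at 0.80 and the second probe of UBE2T at -0.77. UBE2J2 had a lower deposited intensity there, 53 against 73, so its direction turns without normalization, to -0.46 on the log2 scale. UBE2N was at least 2.46-fold lower, and a probe of UBE2E2 (11, -1, 31 and 2), seen on Oct4/GFP (−) alone, was at least 5.18-fold higher. The other UBE2E2 probe was not above background on any array. Apart from the first PSMA7 probe, each difference past 2-fold between the GFP (−) arrays was under 2-fold, or reversed, in at least 1 of 6 other settings.

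Within the Oct4 line, GFP (+) and GFP (−) cells differed by more than 2-fold at 5 of 27 proteasome probes, 2 higher and 3 lower in GFP (+) cells. Over all probes 8.17% were higher and 13.9% lower, and the family median was 0.14 against -0.02. PSMC4, PSMA1 and the first probe of PSMA2 were 9.53-fold, 6.98-fold and 2.92-fold lower in GFP (+) cells. The first probe of PSMA7 was 2.77-fold higher and PSMD5 3.67-fold higher. The PSMA2 difference was -0.41 without normalization. The low array was Oct4/GFP (+) for PSMC4, PSMA1 and PSMA2 and Oct4/GFP (−) for PSMA7 and PSMD5. The next highest member was PSMD1 at 0.78. Of 8 UBE2 probes, 2 were higher, UBE2Q1 and the second probe of UBE2V2 at 2.64-fold, and 0 were lower. The lowest were UBE2J2 at -0.97, UBE2Q2 at -0.73 and UBE2Z at -0.54. By a bound, UBE2C was at least 2.33-fold higher in GFP (+) cells and the UBE2E2 probe at least 4.88-fold lower, where 10.8% of all probes were higher and 20.6% lower with bounds included. The UBE2C bound was under 2-fold in 2 of 6 other settings, down to 0.14 on the log2 scale.

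Within the Nestin line, the median of the proteasome probes lay slightly higher in the GFP (+) cells. Of 33 proteasome probes measured, 3 (9.09%) were more than 2-fold higher and 0 lower in GFP (+) than in GFP (−) cells, against 6.01% higher and 5.25% lower over all probes. The median was 0.24 against 0.02, and 0.17 to 0.39 above that of all probes in the other settings. Of the 33 differences, 19 were above 0 and 14 below. The probes past 2-fold were the first of PSMB2 at 4.90-fold, of PSMA2 at 2.87-fold and of PSMB6 at 2.05-fold. Their second probes had log2 differences of 0.83, -0.58 and -0.07, so again no gene passed 2-fold on both probes. With the probes of each gene averaged, 1 of 27 genes was more than 2-fold higher, against 5.93% of all genes. The lowest members were PSMD13 at -0.59, the second probe of PSMA2, and the first probe of PSMA7 at -0.39. Of 11 UBE2 probes, UBE2A (39, 118, 16 and 46) was 2.15-fold higher in GFP (+) cells and UBE2D4 and UBE2Q1 were lower. UBE2R2 was higher by at least 2.20-fold, where 7.09% of all probes were higher and 6.23% lower with bounds included. That bound was under 2-fold in 2 of 6 other settings, down to 0.45 on the log2 scale. The 4 comparisons use the same 4 arrays in different pairs, so they are not independent of each other.

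**Figure D4:**
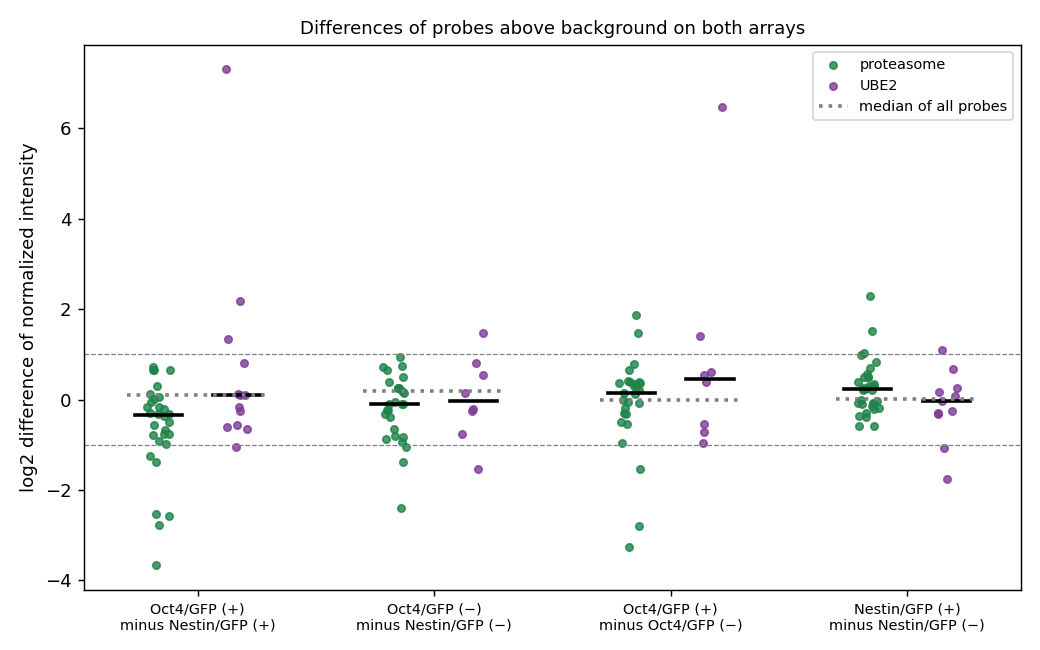
Log2 difference of normalized intensity (y axis) of each proteasome and UBE2 probe above background on both arrays, in the 4 comparisons. Black bars are family medians, dotted lines the median of all probes and dashed lines a 2-fold difference. The proteasome median lies at -0.35 between the GFP (+) arrays and at 0.24 within the Nestin line, and the isolated points above 6 are UBE2Q1.

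Other genes of the pathway gave mixed values between the GFP (+) arrays. Of 12 listed symbols of proteasome partners 10 had a probe. The others, SEM1 and ECPAS, are newer names of the listed SHFM1 and KIAA0368, so no listed partner lacked a probe. Of 8 probes measured 2 were more than 2-fold higher and 4 lower, against 14.9% and 11.9% of all probes, as for the lists that follow. The proteasome-bound deubiquitinase UCHL5 (37, 396, 25 and 75) was 4.72-fold lower, and ADRM1 (41, 196, 8 and 113), the ubiquitin receptor to which it binds, was 2.16-fold lower. The transcription factor NFE2L2 (96, 844, 84 and 539) was 3.37-fold lower, and NFE2L1 (11, 36, 9 and 109) was not above background on either Oct4/GFP array. The small subunit SHFM1, now named SEM1, was 3.66-fold lower on one probe (34, 276, 36 and 114) and just past 2-fold higher on the other (566, 650, 208 and 495). PAAF1 (110, 129, 53 and 123) was 2.02-fold higher. For that other SHFM1 probe and for PAAF1, the deposited intensity was lower on Oct4/GFP (+), so the direction turns without normalization. Of 5 probes of shuttle factors and segregase genes, RAD23B (336, 410, 85 and 502) was 2.03-fold higher and 0 were lower. The deposited intensity of this RAD23B probe was lower too, 336 against 410, so its direction also turns without normalization. VCP, the segregase ATPase, differed by -0.94. None of the 2 ubiquitin-like modifier probes measured, UBB at 0.56 and ISG15 at 0.68, and not the 1 activating enzyme probe, SAE1 at -0.46, passed 2-fold, while SUMO3 (-6, 71, 13 and 30 on one probe) was lower by a bound past 2-fold. Of 3 probes of related conjugating-type genes, AKTIP and TSG101 were 2.19-fold and 2.24-fold higher, and CDC34 differed by -0.53.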

How the data were processed

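RNA of 4 sorted H1299 populations was hybridized to 1 Phalanx Human OneArray each. The authors deposited 1 table of linear intensity values in whole numbers for 30968 probes, with a background subtracted. No source used here names the software or any scaling. Of these probes, 17397 have 1 gene symbol in the platform annotation, and all 39 proteasome and 22 UBE2 symbols are current in RefSeq, which lists 48 and 36 such genes.

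Noise was estimated per array from the values below 0, as the square root of their mean square, and the limit was 3 times this SD. Values were quantile normalized over all probes. Values not above background took a floor, the smallest normalized value above the limit of that array (17.25, 18.50, 30.50 and 16.25), before log2, so a probe above background on 1 array of a comparison has a bound ("at least N-fold"), and bounds under 1 were dropped. Probes were counted past 2-fold (log2 above 1 or below -1) among those above background on both arrays, beside the same share over all probes. Levels of different probes were not compared, other than to pick the brightest probes to name. No test was possible with 1 array per population.

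Named genes were UBE2Q1, the 3 brightest probes of each family, the probes with the largest differences each way (6 between the GFP (+) arrays, 3 in the other comparisons), those past 2-fold by a bound, genes with 2 probes and a fixed list of catalytic, regulatory and modifier-specific members. Members, lists and settings were chosen with earlier results of these data known. Alternatives were other scalings, a stricter limit, an offset of 50, bounds included, gene means and, chosen after seeing the data, removal of a lowess trend (span 0.3). The steps were tested on simulated arrays. Python 3.11.15 with numpy 2.4.6, pandas 2.3.3, statsmodels 0.14.6 and matplotlib 3.10.9 was used.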

Additional observations from a re-analysis of the deposited data

Results flagged for a closer look

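The first probe of PSMA2 moved in opposite directions with GFP state in the 2 reporter lines, with a log2 difference of GFP (+) minus GFP (−) of -1.55 in the Oct4 line and 1.52 in the Nestin line, a gap of -3.07. The second PSMA2 probe differed by 0.33 and -0.58, and without normalization the Oct4 line difference of the first was -0.41. The UBE2Q1 probe also moved in opposite directions, with 6.47 in the Oct4 line and -1.08 in the Nestin line, a gap of 7.55. The Nestin line difference of UBE2Q1 was under 2-fold in 3 of 6 other settings. Of 3980 probes detected on all arrays, 63 passed 2-fold in opposite directions and 37 in the same direction. With 1 array per population these differences were not tested.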

How the results depend on the processing

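No paired analysis was possible because each population has 1 array and the replicate number is 1 throughout, which leaves no pairs to fit. Of 64 counts recomputed under 8 other settings, 39 stayed within 1.5 times the main count. Scaling moved counts most. Without normalization, proteasome counts past 2-fold were 22 (Oct4/GFP (+) against Nestin/GFP (+), main 6), 27 (GFP (−) arrays, main 3), 20 (Oct4 line, main 5) and 6 (Nestin line, main 3), and UBE2 counts 9 (main 4), 7 (main 2) and 5 (main 2) in the first 3 comparisons. The Oct4 line then had 18 higher and 2 lower proteasome probes, since the median of all probes was 1.03. With each array centred on its median, proteasome counts were 22, 11 and 17 in the GFP (+), GFP (−) and Nestin line comparisons and the UBE2 count was 9 between the GFP (+) arrays. In the GFP (−) comparison UBE2 then had 0 higher and 2 lower, and in the Nestin line 2 higher and 1 lower. Centred on the probes detected on all 4 arrays, the GFP (−) proteasome count was 7, and UBE2 had 3 higher and 0 lower between the GFP (+) arrays. The median of all probes between the GFP (+) arrays was -0.93 as deposited and 0.11 after the latter centring. At 5 noise SD the UBE2 counts were 1, 1, 0 and 1. With the offset they were 2 between the GFP (+) arrays and 0 in the Nestin line. With bounds included the GFP (−) counts were 6 (proteasome) and 4 (UBE2), and UBE2 in the Oct4 line had 4. At the gene level the proteasome counts were 3 in the Oct4 line and 1 in the Nestin line, and the UBE2 counts were 1 in the GFP (−) and Oct4 line comparisons, because probes of one gene are averaged. For other shifts the cause was not tested. Of 38 single differences past 2-fold, 19 stayed so in every setting that gave a value, among them those of PSMC4, UBE2Q1 in Oct4/GFP (+), the second probe of PSMA1, and PSMB5 and PSMD14 between the GFP (+) arrays. Of these 38 differences of members, only UBE2J2 between the GFP (−) arrays reversed, to -0.46 without normalization. Signal near background limits the UBE2 values, and 1 array per population limits all.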
